A study of Mus musculus with 10 samples.

Results

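The 10 genes described here build or act on the chromosome axis of meiosis: Sycp1, Sycp2, Sycp3, Syce1, Hormad1, Stag3, Smc1b, Rec8, Spo11 and Dmc1. They were named as a set for their role, not for their values, and are 10 of 49997 genes of the mouse RefSeq annotation. Every measured cytosine from 2 kb before to 2 kb after each annotated gene span was taken, which gave 480 of the 2391795 CpG cytosines measured. Of the 10 genes, 9 had at least 3 such cytosines, and Dmc1 had 0 and was unmeasured.

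DNA methylation was measured by reduced representation bisulfite sequencing, in which a restriction digest enriches CpG-rich fragments and bisulfite turns unmethylated cytosines into thymines in the reads. The samples were single mouse embryos at embryonic day 7.5, the time of gastrulation, with 5 labelled control and 5 labelled arsenic, all from experiment 2. Strain, sex, arsenic dose and timing, and whether extraembryonic tissue was included were not stated in the labels. The study set out to compare the groups, but the 10 libraries of the count table carry only the numbers 1 to 10 and could be tied to no embryo or group. No comparison or test of control against arsenic was therefore made, and nothing below bears on an effect of arsenic.

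In meiosis, sister chromatids are held by a cohesin ring with meiosis-specific subunits, on which an axis of SYCP2, SYCP3 and HORMAD proteins forms. The synaptonemal complex then joins the axes of homologous chromosomes, while programmed DNA breaks are made by SPO11 and repaired with DMC1. In somatic cells of the mouse these genes are largely silent. The CpG-rich promoters of many germline genes are known to gain DNA methylation soon after implantation. A repressive complex with E2F6, MGA and L3MBTL2 is known to bind E2F-type and E-box sequences at several such promoters. RNA was not measured, so no level below can be set beside expression.

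The promoters of Sycp1, Smc1b and Hormad1 are shown because they held the most read CpGs and differ in level. Each runs 5′ to 3′ on the gene's strand, from 250 bases before to 50 after the RefSeq start (build GRCm38.p6), at chr3:102936051-102936350 on the minus strand, chr15:85131908-85132207 on the minus strand and chr3:95559427-95559726 on the plus strand. Capitals mark the CpGs that were read on at least 1 strand.
Sycp1: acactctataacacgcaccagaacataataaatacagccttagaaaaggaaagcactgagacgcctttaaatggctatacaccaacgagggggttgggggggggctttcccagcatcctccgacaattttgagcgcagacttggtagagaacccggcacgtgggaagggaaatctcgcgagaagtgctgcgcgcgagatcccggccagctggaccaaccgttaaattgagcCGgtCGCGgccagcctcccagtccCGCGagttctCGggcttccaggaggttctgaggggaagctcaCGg
Smc1b: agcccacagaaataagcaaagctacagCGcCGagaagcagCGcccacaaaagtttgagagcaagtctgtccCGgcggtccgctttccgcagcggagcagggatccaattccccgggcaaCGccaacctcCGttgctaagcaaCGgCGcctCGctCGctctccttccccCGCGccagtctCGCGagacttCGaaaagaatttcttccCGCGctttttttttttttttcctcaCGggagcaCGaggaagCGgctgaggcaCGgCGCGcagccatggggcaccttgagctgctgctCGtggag
Hormad1: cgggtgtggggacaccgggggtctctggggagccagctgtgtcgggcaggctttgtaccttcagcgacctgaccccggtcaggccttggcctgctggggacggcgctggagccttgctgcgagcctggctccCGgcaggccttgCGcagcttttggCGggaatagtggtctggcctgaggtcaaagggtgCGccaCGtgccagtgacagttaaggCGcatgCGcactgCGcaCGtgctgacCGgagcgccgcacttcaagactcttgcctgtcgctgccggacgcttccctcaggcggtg
The Sycp1 promoter holds 21 CpGs, of which 7 were read, close to the start. The Smc1b promoter holds 29, of which 24 were read, and the Hormad1 promoter holds 24, of which 10 were read. The median over 27025 RefSeq promoters was 7 CpGs, and Sycp1, Hormad1 and Smc1b had at least as many as 76.7%, 81.6% and 88.5% of them. Read CpGs were absent from the promoter sequences of Sycp3, Syce1, Rec8, Stag3 and Dmc1, so their levels below, where there are any, come from outside those 300 bases.

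The methylation level of a window is the average, over its cytosines, of the share of reads that were methylated. It is pooled over the 10 libraries, and is followed by the lowest, median and highest library. The start window is 1 kb either side of the annotated start, the body is the rest of the span more than 1 kb from both ends, and a window needed 3 cytosines. Strand was known for 9 of the 10 genes, all but Spo11. A start window was measured for 6 genes. Their median level was 45.4%, and the same median in single libraries ran from 40.6% to 47.2%. Of the 6 windows, 5 were at 20% or more, against 17.5% of the 10614 start windows of all autosomal protein-coding genes. The median over those 10614 windows was 2.40%, with quartiles of 1.16% and 10.3%. Among windows with at least 20 cytosines, 5 of 5 members were at 20% or more, against 6.35% of 7816 genes. With the window split at the RefSeq start, 5 of 5 gene sides were at 20% or more, against 14.0% of 9727 genes, and 2 of 4 upstream sides, against 16.4% of 7537 genes.

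**Figure D1:**
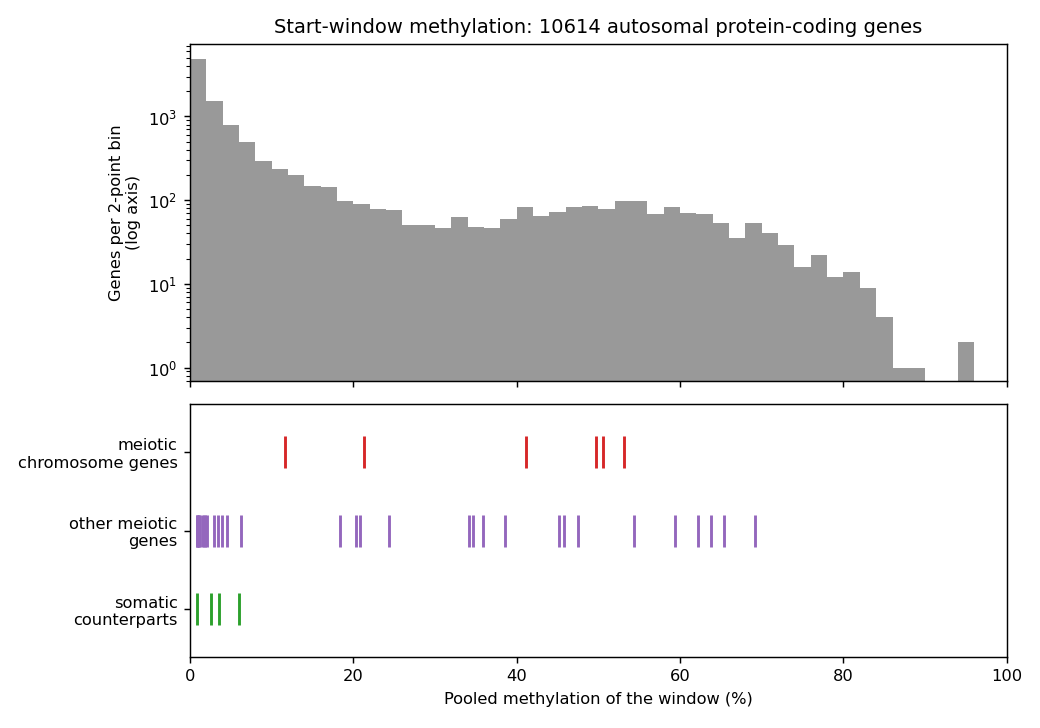
Pooled methylation of the start window, in percent, for 10614 autosomal protein-coding genes (histogram with a log axis of gene counts) and for 3 gene lists (1 tick per gene; for listed genes without a known strand, the gene end with more cytosines). The 6 meiotic chromosome genes lie between 11.6% and 53.2%, and the 4 measured somatic counterparts between 0.889% and 6.01%.

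Most member cytosines lay between the extremes. Of the 480, 116 were under 20%, 342 lay from 20% to 80% and 22 were over 80%. The same shares over all measured cytosines were not computed, so these counts do not set the members apart. The start windows of 5 members also differed between libraries by a median of 11.6 points, beside a median of 14.5 points over all 1829 start windows of 20% to 80%. The windows were not matched for cytosines or reads: the 5 member windows held 24 to 69 cytosines, whereas the others needed only 3. In whole embryos, a level between the extremes does not tell a mixture of cells from a partly methylated allele.

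Among the genes of the synaptonemal complex, the start of Sycp1 had a level close to those of Sycp3 and Hormad1. SYCP1 forms the transverse filaments that span the complex. Its gene lies at chr3:102818499-102936100 on the minus strand. The 52 cytosines of its start window were at 53.2% (libraries 48.3%, 53.1% and 60.5%, 17175 reads counted). Weighted by reads, the level was 48.5%, with a Wilson 95% interval of 47.8% to 49.3%, while Sycp3 was at 51.0% and Hormad1 at 56.2%, so the order of the 3 genes depends on the weighting. Such intervals leave out the spread between libraries and treat all counts as independent. The reads carry no molecular identifiers and a read counts at every CpG it spans, so the intervals are too narrow even for counting error.

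No step in methylation was seen across the Sycp1 start that all libraries shared. The cytosines from -843 to -599 bp of the RefSeq start were at 48.4%, those from -19 to 134 bp at 56.0% and those from 632 to 998 bp at 52.6%. The upstream side was at 51.8% and the gene side at 53.6%, a difference of 1.79 points. Weighted by reads they were at 42.8% and 53.3%, and single libraries differed in either direction, with 58.5% and 45.5% in library 2 and 43.8% and 57.7% in library 3. A block of 9 cytosines in the body, 69651 bp from the start, stood at 52.9%, so the level at the start was like that far inside the gene.

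Sycp2 and Sycp3, which build the lateral elements on the chromosome axis, were read only on the gene side of their starts. Sycp2 lies at chr2:178345295-178407776 on the minus strand, and its 53 cytosines, from 41 to 543 bp, were at 41.2% (36.6%, 42.5% and 45.9%). A dip of 10 cytosines from 76 to 121 bp was at 23.0% (14.1%, 23.5% and 32.2%), while the other 43 were at 45.4% (39.9%, 46.2% and 49.1%). The dip was the lower stretch in 10 of 10 libraries, by 15.0 to 29.5 points, and it was picked out after its values had been seen. Sycp3 lies at chr10:88459587-88473236 on the plus strand, and its 24 cytosines, from 252 to 977 bp and all on the plus strand, were at 50.6% (42.4%, 49.5% and 59.6%). Single cytosines of Sycp3 ran from 26.6% to 73.8%, with no trend with distance visible in the plot of levels around the starts.

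Syce1, a protein of the central element, was not read at its start. The gene lies at chr7:140777229-140787854 on the minus strand. Its 5 cytosines near the end were at 58.9% (42.3%, 61.9% and 77.3%, 2301 reads), the widest spread over libraries of the windows described, beside a median of 59.8% over 4378 gene ends, of which 82.4% were at 20% or more. Its body window held 8 cytosines at 41.2% (30.1%, 41.4% and 46.9%), which lie within the annotated pseudogene Gm29799 (chr7:140784515-140785001).

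That stretch of Syce1 held CpGs whose strands differed widely. At position 140784772 the plus strand was at 62.2% (291 reads) and the minus strand at 3.99% (376 reads). At position 140784922 the plus strand was at 11.7% (214 reads) and the minus strand at 74.2% (391 reads). These were 2 of the 145 CpGs of the members read on both strands, and of 755757 such CpGs measured in all, 1.40% had strands at least 40 points apart. The next largest difference among the members was 13.9 points, and the members' median was 4.22 points against 2.22 over all such CpGs. The CpGs behind these medians were not matched for level or depth. The cause of the difference was not tested.

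HORMAD1 marks axes that have not yet synapsed and is removed once they do. Its gene lies at chr3:95559677-95587863 on the plus strand, and the 28 cytosines of its start window, all upstream, were at 49.7% (44.5%, 48.8% and 56.1%). The level fell toward the start: 10 cytosines from -450 to -306 bp were at 65.8% (60.5%, 65.7% and 70.9%), and 18 from -118 to -8 bp were at 40.7% (32.6%, 40.6% and 50.3%). The stretch nearer the start was the lower in 10 of 10 libraries, by 16.2 to 33.4 points. Both stretches were picked out after their values had been seen. In the body, 6 cytosines were at 70.4% (61.9%, 71.8% and 76.0%). Gm40097, a long noncoding RNA gene, has an end 954 bp from the far end of Hormad1, where no cytosine was read.

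Within the Hormad1 promoter printed above, cytosines in 2 copies of the E-box CACGTG were low. The copy at -57 to -52 bp was at 24.9% on average over its 2 strands, and the copy at -20 to -15 bp at 28.5%. The 4 E-box cytosines averaged 26.7% (15.2%, 25.1% and 39.3%), and the other 14 read cytosines of that promoter 44.8% (37.5%, 44.8% and 54.4%). The E-box cytosines were lower in 10 of 10 libraries, with a pooled difference of -18.1 points. Binding of any factor was not measured.

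**Figure D2:**
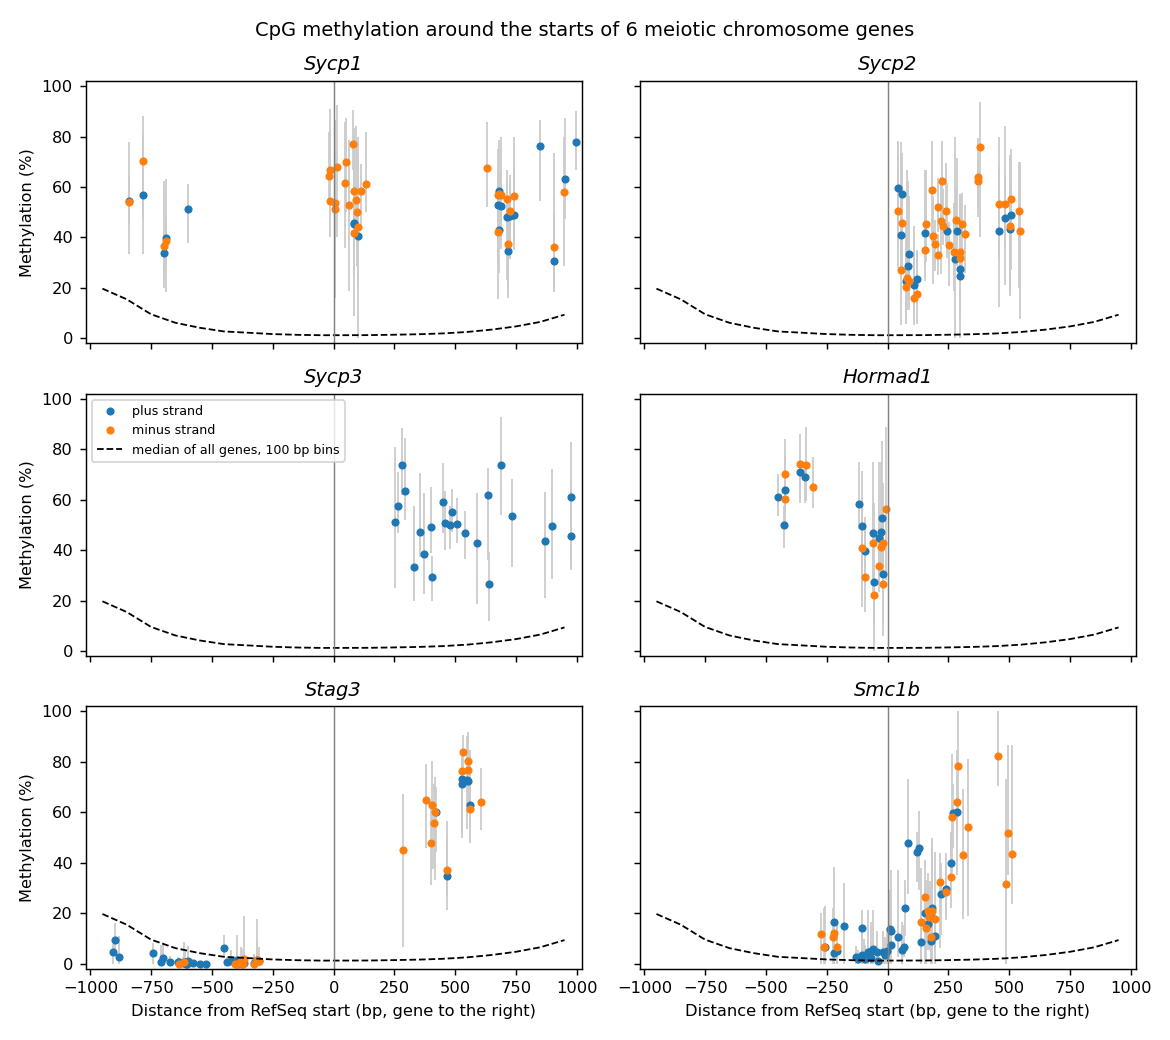
Methylation (percent) of each cytosine against its distance from the RefSeq start (bp, gene to the right) for 6 genes, by strand, with a grey line over the range of the 10 libraries and a dashed line for the median over all autosomal protein-coding genes in 100 bp bins. Sycp1, Sycp2, Sycp3 and Hormad1 lie well above the dashed line throughout, whereas Stag3 and Smc1b go from low levels upstream to high levels inside the gene.

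The cohesin genes had a different shape. SMC1B replaces the mitotic subunit SMC1A in meiotic cohesin, and STAG3 replaces STAG1 and STAG2. Both genes were low on the upstream side and higher on the gene side of the RefSeq start, although for Stag3 the bases nearest to that start were not read.

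Smc1b lies at chr15:85064689-85131957 on the minus strand, and the 69 cytosines of its start window were at 21.2% (18.9%, 21.5% and 23.0%, 25725 reads). The 33 cytosines from -275 to 72 bp were at 7.30% (3.27%, 7.89% and 11.0%), and the 13 from 260 to 512 bp at 54.0% (42.6%, 52.8% and 71.1%). The gene-side stretch was higher in 10 of 10 libraries, by 34.2 to 67.9 points. Both stretches were picked out after their values had been seen, and the cytosines between 72 and 260 bp belong to neither. In 100 bp bins the level rose, from 3.71% in the last 100 bp before the start to 15.9% in the next 100 bp. It was 19.8% in the bin after that and 46.6% from 200 to 299 bp. Single cytosines did not rise evenly, with 48.0% at 83 bp, 46.0% at 128 bp and 8.79% at 138 bp. Farther upstream, 7 cytosines more than 1 kb outside the span were at 57.5% (49.1%, 57.9% and 69.1%), so the low stretch was flanked by higher levels on both sides. The start of Ribc2, a gene on the other strand, lies 141 bp away (RefSeq start 85132098), inside the same low stretch.

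Stag3 lies at chr5:138272514-138312397 on the plus strand, and the annotated span begins upstream of the RefSeq start at 138280509. The start window of the span held 12 cytosines at 11.6% (7.57%, 11.3% and 20.5%), which is the only member below 20%. Around the RefSeq start, 63 cytosines were at 20.9% (17.8%, 20.4% and 22.9%), in a window chosen after seeing the data. With that start 6 of 6 members were at 20% or more, against 16.5% of 10981 genes, but Stag3 and Smc1b were close to that limit and, weighted by reads, below it at 17.9% and 18.8%.

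Stag3 had the widest contrast among the stretches compared. Upstream, 43 cytosines from -905 to -306 bp were at 1.16% (0.656%, 1.27% and 1.55%), and 20 cytosines from 285 to 605 bp were at 63.2% (54.1%, 61.5% and 70.4%). The libraries did not overlap between the stretches, and the difference of 62.0 points ran from 53.3 to 69.6 points over the libraries. These stretches too were picked out after their values had been seen. Of 6299 genes measured on both sides of the RefSeq start, 21 (0.333%) had a gene side at least 40 points higher, and 120 (1.91%) had one at least 20 points higher, which Smc1b also had at 24.1 points. The low stretch also holds the RefSeq start of Gpc2, a glypican gene on the other strand, 572 bp from that of Stag3. The part from -306 to 285 bp, where the level changes, held no read cytosine.

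Farther from the RefSeq start, Stag3 went up and down. From -4802 to -4675 bp it was at 19.4%, from -3851 to -3526 bp at 68.7% and from -1653 to -1403 bp at 50.7%. Inside the gene, 5 cytosines 19667 bp from the start were at 72.9% and 10 cytosines at 26655 bp were at 79.5%. Gal3st4, a sulfotransferase gene, has its upper-coordinate end 543 bp inside the Stag3 span. Its strand was not in the table of starts used here, so that end may be its start or its far end. The cytosines of the span-start window at 11.6% thus lie in both genes or beside them.

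**Figure D3:**
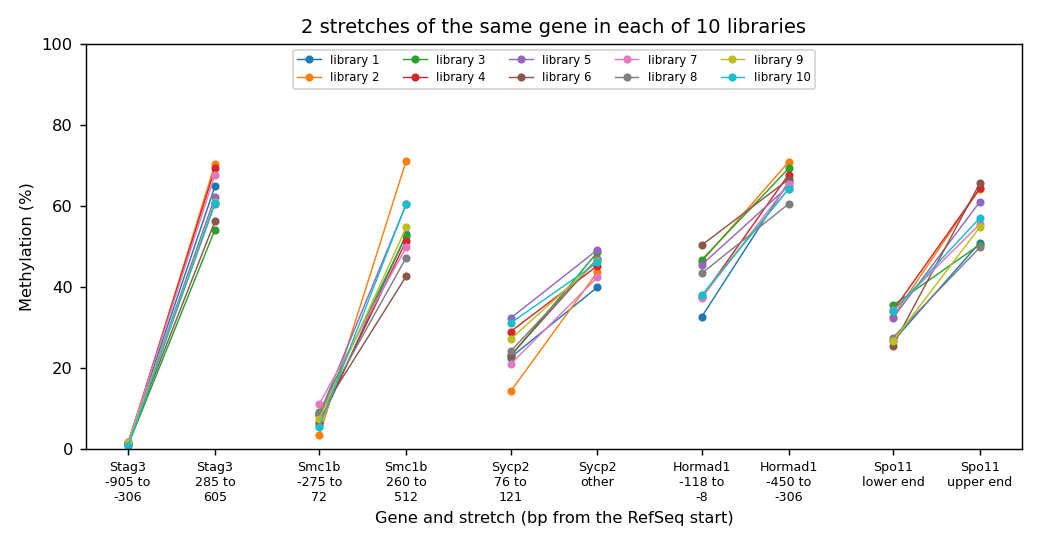
Methylation (percent) of 2 stretches of the same gene in each of the 10 libraries, with a line joining the values of 1 library. In all 5 genes every library had the right-hand stretch higher, by at least 53.3 points for Stag3 and at least 15.0 points for Sycp2 and Spo11. The stretches of all genes but Spo11 were picked out after their values had been seen.

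Rec8 encodes the kleisin that closes the meiotic cohesin ring. The gene lies at chr14:55618002-55625395 on the plus strand and was not read within 1 kb of its start or its end. In its body, 4 cytosines were at 67.5% (56.5%, 66.3% and 75.8%). A further 8 cytosines more than 1 kb past its upper end were at 85.2% (80.7%, 85.7% and 90.5%), the highest window of the set. They lie on the side of Ipo4, a nuclear import receptor gene whose span begins 5 bp from the end of Rec8.

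Of the recombination genes, Spo11 lies at chr2:172977379-172993576, with no strand in the table of starts used here. The 6 cytosines at its lower-coordinate end were at 31.3% (25.4%, 32.4% and 35.4%), and the 10 at its upper-coordinate end at 57.4% (49.7%, 56.2% and 65.6%). The upper end was higher in 10 of 10 libraries, by 15.0 to 40.2 points. Its body, with 32 cytosines, was at 55.4% (42.3%, 57.4% and 66.5%). Within it, 28 neighbouring cytosines averaged 54.2% but ran from 19.2% to 78.6% singly. Dmc1 (chr15:79561497-79605159, minus strand), which encodes the meiotic strand exchange protein, had no measured cytosine, so no level can be given.

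**Figure D4:**
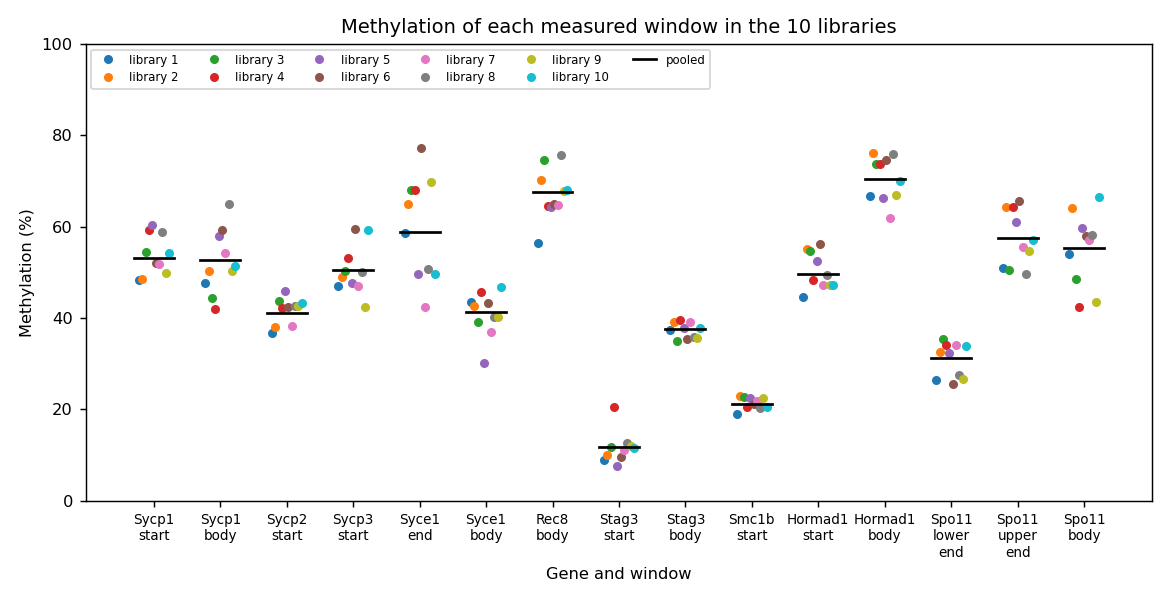
Methylation (percent) of each measured window in the 10 libraries (points, numbered as in the count table) and pooled (bar). The libraries overlap closely for Smc1b (18.9% to 23.0%) and spread widely for the Syce1 end (42.3% to 77.3%).

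Gene bodies gave a smaller contrast with other genes. The 5 members with strand and a body window had a median of 52.7%, and all 11147 bodies a median of 58.1% with quartiles of 44.3% and 70.9%. All 5 were at 20% or more, as were 91.1% of all bodies. Stag3, with 132 body cytosines, was at 37.5% (35.0%, 37.5% and 39.6%), where the body includes the low stretch before its RefSeq start.

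Of 42 other meiotic genes listed for comparison, 31 had a measured window, with a median of 20.4%. They fell on both sides: 16 were at 20% or more and 13 under 5%. Of the 28 with a known strand, 14 start windows were at 20% or more, against 17.5% of all genes, with a median of 19.6%. The highest were Stra8, the retinoic acid-induced gene needed to enter meiosis, at 69.2%, Brdt, a testis bromodomain gene, at 65.4% and Fkbp6, a piRNA pathway cochaperone gene, at 63.8%. The lowest were Prdm9, which sets the sites of meiotic breaks, at 0.794%, Zcwpw1, a reader of the histone marks made by PRDM9, at 0.825% and Trip13, a remodeller of HORMAD proteins, at 0.934%. Close relatives of members, picked out after their values were seen, varied: Hormad2 was at 34.2%, Sycp2l at 38.5% and the cohesin gene Rad21l at 24.4%, whereas Syce2 of the central element was at 4.50% over 82 cytosines.

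Genes with related functions in mitotic cells were near the median of all genes. Of 6 counterparts described, 4 were measured, 0 were at 20% or more and the median was 3.02%, near the 2.40% of all start windows, of which 17.5% were at 20% or more. Smc3, the cohesin subunit used in both kinds of division, was at 6.01% (4.76%, 5.86% and 7.23%). Smc1a and Stag2, counterparts of Smc1b and Stag3 on chromosome X, were at 2.53% and 3.51%. Stag2 had no known strand and was read at the gene end with more cytosines. Only Smc3 and Mad2l1 had autosomal start windows, as in the background of all genes, with a median of 3.45%. Mad2l1, a spindle checkpoint protein with the HORMA domain, was at 0.889%. Rad21 and Stag1 had no measured cytosine.

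The promoters shared some letters. CACGTG was in 4 of 9 member promoters (Sycp1, Sycp3, Stag3 and Hormad1), against 8.09% of 27025 genes. All motifs were searched on both strands, with overlaps between them kept. The E2F-type letters TCCCGC were in 7 of 9, all but Sycp2 and Syce1, against 22.1%, and TCTCGCGA was in Sycp1, Stag3 and Smc1b, against 1.13%. Each of these motifs holds a CpG, and the 9 member promoters held 10 to 30 CpGs, against a median of 7 over all promoters. The background was not matched for CpG number. Of all genes with the motif and a measured start, 13.0%, 8.18% and 5.41% were at 20% or more in the same order. The share was 17.5% over all genes and 6.35% over those with at least 20 cytosines. The shares for CACGTG and TCCCGC lay between these 2 backgrounds, and that for TCTCGCGA lay below both. At the cytosines themselves, TCTCGCGA in Smc1b (-74 to -67 bp) was at 3.70% and the TCCCGC beside it (-47 to -42 bp) at 4.47%. The TCCCGC of Sycp1 (2 to 7 bp) was at 53.8% and that of Hormad1 (-95 to -90 bp) at 34.5%. The TCCCGC values rest on 1 cytosine each in Smc1b and Sycp1 and on 2 in Hormad1. A match is only a match of letters and does not show a bound site, and the motifs were chosen with the levels known.

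Library 1 was the lowest in 4 of the 6 start windows. It also had the lowest mean over all autosomal cytosines, 40.3%, where the libraries ran from 40.3% to 42.8%. No library was the highest in more than 2 of the 6 windows. Coverage summed over the member cytosines was 18142 to 24937 per library, with a median of 36 reads per cytosine and library and a lowest value of 10.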

How the data were processed

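Bismark, Trim Galore and methylKit and the mm10 build are named in the submitters' processing notes, with no versions or settings. The authors' deposited table holds raw counts per CpG cytosine (coverage, methylated and unmethylated reads), per the file headers, with a coverage of at least 10 in each of 10 libraries and the strands apart. Its 30 per-sample columns carry only numbers, matched no sample label and were pooled, so no group was formed and no p-value computed.

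Levels were computed in Python 3.11.15 (numpy 2.4.6, pandas 2.3.3). Spans, strands and promoter sequences came from RefSeq GRCm38.p6, whose coordinates are those of mm10: 99.995% of 180446 cytosines inside the promoter sequences lay on a CpG of the right strand. Exon, intron and UTR positions were not analysed here. Every measured member was named. Of the other meiotic genes, the rule named the 3 highest and the 3 lowest; all somatic counterparts but 1, which is not reported here, and neighbours with an end within 1 kb of a member's end were named. The members, lists, windows and stretches were chosen with earlier results of these data known. The window code was tested on simulated data. Coverage summed over the table was 94583116 to 127102232 per library.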

Additional observations from a re-analysis of the deposited data

Results flagged for a closer look

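At the lower-coordinate end of Stag3, library 4 was at 20.5%, and the next highest library was at 12.6%. The gap was 0.611 of the range of the 10 libraries, above Dixon's 95% critical value for 10 samples. It was the highest library at 7 of the 12 cytosines, where its coverage ran from 13 to 112. Without it the window was at 11.0% instead of 11.6%. Of 18 windows examined, 1 was past the critical value, and chance flags about 1 in 20. The libraries mix the groups of the study, and whether library 4 is a control or an arsenic embryo was not known.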

How the results depend on the processing

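The median of the start windows, 45.4%, was 48.1% with a coverage minimum of 20, 37.6% with CpGs read on both strands and merged (which leaves out Sycp3), and 50.6% on the gene side of the RefSeq start. It was 41.2% with the lower-coordinate end of Spo11 added and 49.7% with its upper-coordinate end. Those 3 last settings, and the window around the RefSeq start, were chosen after seeing the data. Leaving out 1 library at a time gave 45.1% to 46.0%. The count of members at 20% or more stayed between 4 and 6 in all settings, of 5 to 7 windows measured. Apart from the windows at the RefSeq start, the share of all genes was not recomputed for these settings. Smc1b fell to the other side of 20%, at 18.8%, with the coverage minimum of 20 and also when weighted by reads. Stag3 was at 11.6% at its span start but 20.9% around its RefSeq start. Of 52 single levels under other settings, 41 stayed within 1 SD of the libraries. These include levels that could not change, because requiring 10 cytosines or adding Spo11 left the single windows as they were. No member with a known strand had both ends measured, so the planned difference between start and end has no value. No paired analysis was possible because the columns carry no sample label and no groups were compared. The number of cytosines, 13 and 12, limits Syce1 and Rec8, and fragments not read in all 10 libraries are missing.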

Other observations

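The low E-box cytosines of Hormad1 were looked for elsewhere, after their values had been seen. In 50 autosomal promoters whose other read cytosines averaged 20% or more, Hormad1 included, the CACGTG cytosines were lower than the others in 49 (98.0%). The limit of 20% was set on the other cytosines only, so the choice of promoters itself favoured lower CACGTG values. The median difference was -15.9 points, with quartiles of -22.8 and -11.1 points, and in 39 promoters they were lower by at least 10 points. The same calculation for each of the 16 palindromes with a central CpG put AACGTT at -17.7 points (15 promoters), CACGTG next, then GTCGAC at -12.0 points (7 promoters) and GACGTC at -10.9 points (21 promoters). At the other end, TCCGGA was at 6.08 points (76 promoters) and TACGTA at 12.3 points (12 promoters). CCCGGG, which holds the CCGG letters, was at 0.540 points (108 promoters). No cause was tested, and some promoters enter under several palindromes.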
